A study of Mus musculus with 2 samples.

Results

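The 109 clusters described here lie in 10 stretches of the mouse genome that are candidate precursor loci of pachytene piRNAs. They were taken from 2964 clusters listed for an ALKBH5 immunoprecipitation (IP) of testis RNA, by lying, start and end, inside 10 fixed stretches of the build NCBIM37 on either strand. A cluster, which the table also names an island, is a stretch of 1 strand covered by reads. The stretches were picked with the counts of these libraries in view, because several listed clusters of few reads lay close together in them, so the ratios given here describe the choice and carry no test.

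The study comprised 2 PAR-CLIP libraries from testis lysates of ICR mice aged 10 weeks that had been injected with 4-thiouridine, a photoreactive nucleoside that enters new RNA. Lysates were crosslinked at 365 nm and immunoprecipitated with a rabbit polyclonal antibody to ALKBH5 (1 library) or with IgG as the negative control (1 library), after which RNA was cut with RNase T1. No group had a replicate, so no difference between IP and IgG could be tested. The intervals given here reflect counting error at most: reads copied by PCR and carrying no molecular identifier do not stand for separate molecules. How many mice went into a library, and whether testes were pooled, is not given in the sources used here.

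Pachytene piRNAs are small RNAs made in large amounts when male germ cells pass through meiosis. They are cut from long single-stranded transcripts of loci between protein-coding genes and are loaded onto the PIWI proteins MILI and MIWI, which are needed for making sperm. Many such loci are driven by the transcription factor A-MYB, some in both directions from a shared central promoter and others on a single strand. ALKBH5 is a nuclear enzyme that removes the methyl group of N6-methyladenosine in RNA and is abundant in testis. Neither an annotation of this build nor piRNA sequences were used here, so the name of these loci rests on their positions. It could be set only against the strand and the length of the clusters, and against their spacing, which the choice of loci had used.

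The strands were arranged in an orderly way. In 5 loci, with 69 clusters, clusters lay on both strands and all minus clusters were to the left of all plus clusters, that is, the strands pointed away from each other. In 3 loci clusters lay on the plus strand and in 2 on the minus strand, 40 clusters in all. Listed clusters covered 1.33% (chromosome 2) to 4.35% (chromosome 18) of the span of a locus, so the table shows scattered pieces and not a continuous transcript. Over all loci the strands were even in number, with 55 minus and 54 plus clusters.

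Few reads stood behind most of these clusters. The 109 clusters held 2373 IP reads and 393 IgG reads, 0.00749% and 0.00127% of libraries of 31668845 and 31031345 reads, totals recovered from the deposited z-scores that may or may not count every aligned read. A cluster had 11 to 167 IP reads with a median of 15, and 94 of the clusters had under 30. The IgG count was listed as 0 in 74 of the 109 clusters (67.9%, against 28.6% of all listed clusters). No cluster of the whole table had an IgG count of 1, 2 or 3, while 847 had 0 and 50 had 4. Whether a listed 0 stands for any count under 4 is not known, so folds against it are given as bounds with 3 reads in its place.

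With library totals as the scale, the summed ratio of IP to IgG was 5.92 (exact binomial 95% interval 5.32 to 6.60). With each IgG count of 0 set to 3 reads it was 3.78 (3.46 to 4.14). Intervals of this kind, here and below, treat the put-in reads as counted, so they are not intervals of observed counts. Over the 35 clusters with IgG reads alone the summed ratio was 3.30, and their own ratios ran from 1.67 to 7.35 with a median of 4.25. With a pseudocount of 1 in both libraries, 108 of the 109 clusters had a ratio of at least 2, against 57.0% of all listed clusters. A ratio of at least 4 was reached by 88 (80.7%), against 34.6%. These shares take a listed 0 as 0, and no cluster with an IgG count of 0 could be listed under 11 IP reads. All 74 such clusters of the loci therefore passed both thresholds by the listing alone, as did those elsewhere in the table. In the 1597 other listed clusters that also had 11 to 167 IP reads the shares were 88.2% at 2 and 55.9% at 4, and in the 616 of these over 20 bases long 88.8% and 66.1%. The exact interval was above 1 for 35 of 35 clusters with IgG reads (98.4% over the table) and above 2 in 10 of them (12.6%). Since the loci were picked on these counts, nothing is read from the differences.

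The listing itself left little room for other ratios. The table holds clusters under a p threshold of 0.001, and the authors' z-scores could be recomputed from both counts, which gives the lowest IP count that could be listed at any IgG count. At an IgG count of 0 this was 12 reads on the minus strand and 11 on the plus strand, and at an IgG count of 4 it was 21 and 19. Of the 109 clusters, 26 stood exactly at that lowest count (23.9%, against 10.9% of the listed clusters with up to 5000 IgG reads) and 47 within 1 read of it. The median cluster had 1.11 times the lowest listable count, compared with 1.17 in the 1597 other clusters of that read range. Only 14 clusters reached 1.5 times it and 3 reached 2 times.

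**Figure D1:**
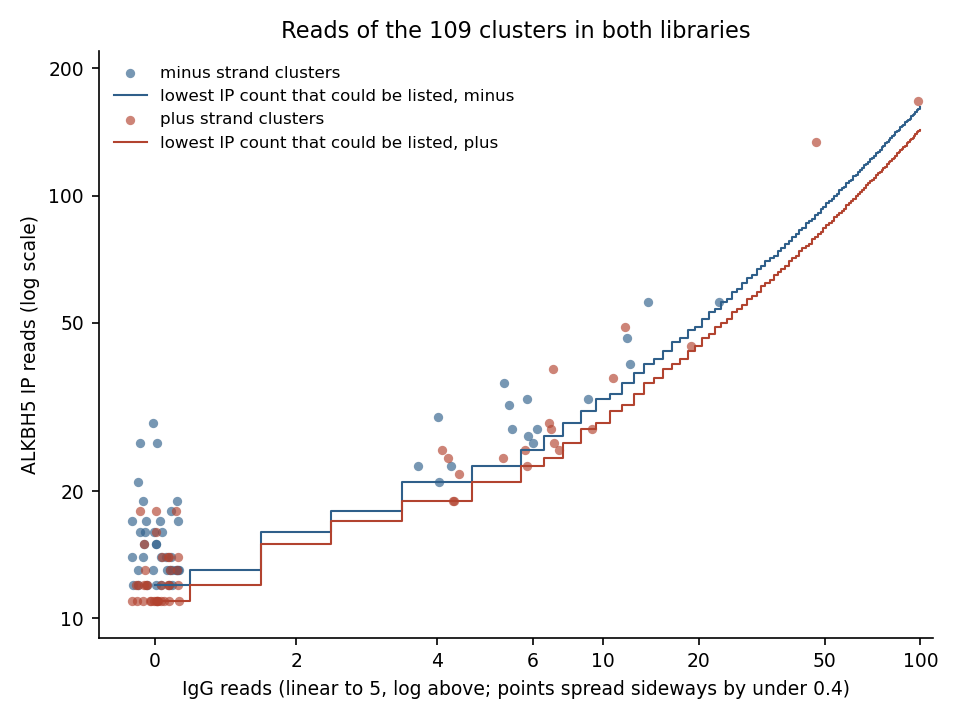
IP reads (log scale) against IgG reads of the 109 clusters, minus strand in blue and plus strand in red, with the lowest IP count that could be listed drawn as a line for each strand. Most points sit on or just above the lines; 26 lie at the lowest count, and the plus cluster with 134 IP reads and 47 IgG reads lies well above it.

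The 3 clusters at 2 times the lowest listable count or more were all on the minus strand and had an IgG count of 0. The first, chr7:80937490-80937533, had 29 IP reads (at least 9.47-fold higher in the IP against 3 reads). The others, chr9:67577290-67577343 and chr18:67221658-67221753, had 26 IP reads each (at least 8.49-fold). These bounds leave out counting error. With IgG taken as 0, and not as 3, the lower limits of the exact intervals were 7.22 for the first and 6.43 for the others. They are not limits of the bounds above: with 3 IgG reads the lower limits would be lower, and they were not computed. These clusters were named after their values were seen.

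The choice of loci did not use the numbering of the islands, although the density counted from it is tied to that choice. Each cluster carries a number, and among the listed clusters the numbers followed the position along the chromosome in all 44 combinations of chromosome and strand. Each number skipped between listed clusters was taken to be an island called on the same strand. That is an assumption, because how the authors numbered the islands is not stated, and the order of the listed numbers does not show it. All island counts, densities, listed shares and limits given here rest on it. The reads of unlisted islands were not analysed here. How the islands were called, and from which of the libraries, is not given in the sources used here. On the locus strands 1257 islands were numbered, of which 109 were listed (8.67%). Up to the highest numbers listed, 48926 for the minus strand and 38003 for the plus strand, 3.41% were listed.

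By these numbers the loci were densely covered. The 14 locus strands with 2 or more listed clusters held 4.10 islands per kb, against 0.0161 per kb between listed clusters outside the loci, a 254-fold difference. The listed clusters themselves made up 0.352 per kb of the first value. Averaged over its length, each of the 13 locus strands of at least 5 kb was dense, from 2.30 islands per kb on chromosome 4 to 6.60 on the minus strand of chromosome 9. Elsewhere, the 2606 stretches of at least 5 kb between neighbouring listed clusters had a median of 0.0183 and a 99th percentile of 0.571 islands per kb. Among them 6 reached the median of the 20 such stretches inside the loci, which was 3.34. The least dense of those 20, over 13.2 kb of the minus strand on chromosome 4, had 0.836, and 19 of the outside stretches were at or above it. Loci were chosen for listed clusters lying close together, and more islands give more chances to be listed. Each locus strand was also measured from its first to its last listed cluster. The density is therefore not independent of the choice, and the 254-fold difference describes that choice at least in part.

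The stretches next to the loci were sparser on average. Of the 30 stretches from a locus strand to the next listed cluster on either side, 29 had 0.00978 to 0.205 islands per kb. The numbers give no position for unlisted islands, so where the dense part of a strand ended could not be read from these averages. The exception was the left side of the minus strand on chromosome 9, where 56 islands were numbered over 82.0 kb, or 0.683 per kb. In the 5 loci with clusters on 1 strand, the numbers set only an upper limit on islands of the opposite strand, whose positions are unknown. On chromosome 2, at most 24 minus islands were numbered over 884 kb around the locus, against 161 plus islands within its 51.6 kb. On chromosome 4, at most 49 plus islands over 7053 kb compared with 86 minus islands in 37.4 kb. The limits were looser on the other loci. On chromosome 14 up to 44 plus islands over 2734 kb stood against 46 minus islands in the locus, and on chromosome 10 up to 76 minus islands over 2078 kb against 83 plus islands. On chromosome 15 up to 193 minus islands over 2536 kb were above the 45 plus islands of the locus. For none of the 5 loci do the numbers show whether the opposite strand was empty inside the locus.

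**Figure D2:**
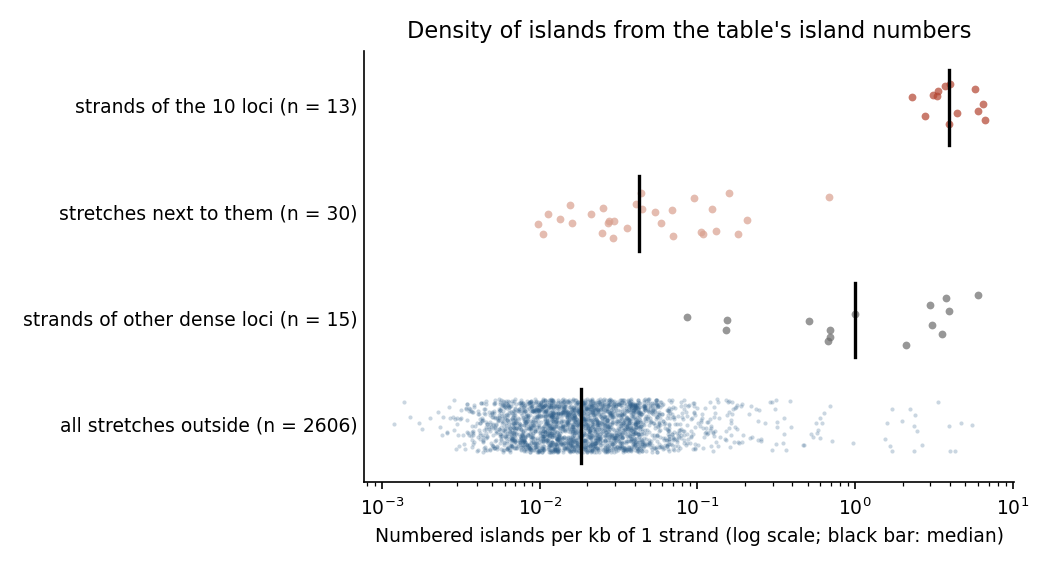
Islands per kb of 1 strand (log scale), counted from the island numbers, for locus strands of at least 5 kb, the stretches from all locus strands to the next listed cluster, strands of other dense loci, and all stretches of at least 5 kb outside; points are strands or stretches and bars are medians. All 13 locus strands lie at 2.30 or higher, while the stretches outside have a median of 0.0183. Each skipped number is taken to be an island, which is an assumption.

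Other dense loci, with at least 5 listed clusters at gaps of up to 20 kb, were more varied. There were 11 of them with 186 clusters. Their 15 strands of at least 5 kb had 0.0857 to 5.96 islands per kb with a median of 1.0. Of these strands, 6 were as dense as the least dense strand of the 10 loci, both strands of the mitochondrial genome among them. The 13 locus strands had 5.11 to 13.04% of their islands listed. Of the other dense strands, the minus strands on chromosomes 12 (8.82%), 5 (11.9%) and 9 (8.33%) lay in the same range, and the median was 48.7%. The IgG count was 0 in 99 of the 186 clusters, and 54.3% reached a ratio of at least 4. Their 1576643 IP reads and 1261658 IgG reads lay mostly on 1 minus strand of chromosome 8, with 1169823 and 920859.

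The clusters of the loci were longer than most listed clusters of like reads, but not longer than those of other dense loci, which were not matched for reads. Their median length was 76 bases, with quartiles of 53 and 102 and a range of 18 to 278. Only 1 was 20 bases or shorter, an 18-base plus cluster at chr2:92416249-92416266 with 11 IP reads. Of the 1597 other listed clusters in the same range of IP reads, 981 (61.4%) were that short and the median was 18 bases. Clusters of 50 bases or longer made up 82 of 109 (75.2%) in the loci and 16.4% of the others. The 616 of the others that were over 20 bases long had a median of 40.5 bases. In the other dense loci the median was 113 bases and 80.1% were 50 bases or longer. That set is mixed. It includes 55 clusters of the chromosome 8 minus strand, with a median of 126 bases, and clusters of the mitochondrial genome. Over its strands of at least 5 kb the median length ran from 16 bases (minus, chromosome 6) to 325 (plus, mitochondrial). Among clusters with under 30 IP reads the median IP count was 14 in both sets, and the median length was 76 bases in the 94 clusters of the loci and 19 in the 748 others. In that range the IgG count was listed as 0 in 78.7% of the clusters of the loci and in 91.6% of the others.

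**Figure D3:**
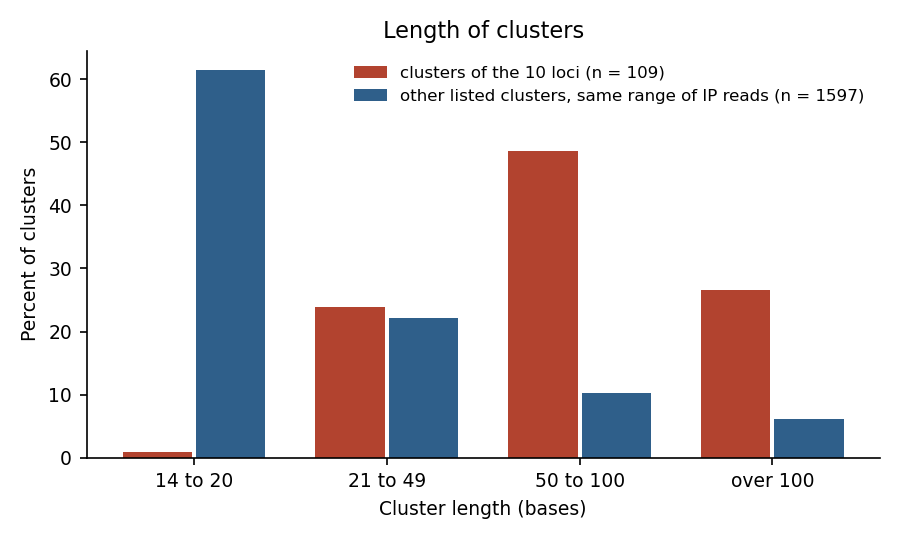
Percent of clusters in 4 classes of length (bases) for the 109 clusters of the loci and for the 1597 other listed clusters with 11 to 167 IP reads. Clusters of 14 to 20 bases are 0.917% of the first and 61.4% of the second set.

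The locus on chromosome 17 (chr17:27428706-27494676) was the largest, with 31 clusters and 30.3% of the IP reads of all 10 loci. Its strands had 188 minus islands in 31.2 kb and 183 plus islands in 31.9 kb, 6.03 and 5.74 per kb. Between them lay a gap of 2869 bases without a listed cluster. On the left edge of the gap the minus cluster chr17:27459859-27459905 had 40 IP reads and 12 IgG reads, a ratio of 3.27 (1.68 to 6.84). On its right edge the plus cluster chr17:27462775-27462975 had 26 against 7 reads, a ratio of 3.64 (1.54 to 9.93). To the right of the last listed minus cluster, 52 minus islands were numbered over 757 kb, at positions that are not known.

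The strands of this locus differed in their reads. The 15 minus clusters summed to 232 IP reads and 12 IgG reads, and all but the cluster at the gap had an IgG count of 0 and 12 to 17 IP reads. The 16 plus clusters had 486 IP reads and 115 IgG reads, and 6 had an IgG count of 0. With zeros set to 3 the ratio was 4.21 (3.12 to 5.77) for the minus strand and 3.58 (2.95 to 4.37) for the plus strand, and these intervals overlap. Scaled to the totals of each strand, the ratios were closer, 4.03 for the minus and 3.92 for the plus strand. Per kb the plus strand had 15.2 and the minus strand 7.44 listed IP reads.

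The plus cluster chr17:27473519-27473728, 210 bases long, led the locus with 134 IP reads and 47 IgG reads, a ratio of 2.79 (1.99 to 3.98). In the authors' deposited table it has the lowest p of the 109 clusters, 1.79e-12, from their test on 1 library per group. Next among the plus clusters came those at 27467754 to 27467826 with 49 IP reads and 12 IgG reads, and at 27465038 to 27465077 with 39 and 7 reads, ratios of 4.00 and 5.46. The plus cluster at the far right end, 27494487 to 27494676, had 37 against 11 reads, a ratio of 3.30 (1.65 to 7.16). A plus cluster at 27485310 to 27485391 with 28 and 9 reads, ratio 3.05, stood at the lowest listable count. The other long cluster of the strand, at 27471792 to 27471952, had 28 and 7 reads.

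On chromosome 7 (chr7:80922558-80974015) 13 clusters held 444 IP reads and 139 IgG reads, and 98 of these IgG reads came from 1 cluster. That cluster, plus chr7:80973982-80974015, 34 bases long at the right end, had the most reads of all 109 in both libraries, 167 IP and 98 IgG, and the lowest ratio, 1.67 (1.29 to 2.17). Its 491 IP reads per 100 bases stood above the 8.03 to 138 of the other 108 clusters. With zeros set to 3, the ratio of the locus was 2.67 (2.23 to 3.21) with this cluster and 4.18 (3.18 to 5.56) without it. With it, the 6 plus clusters had a ratio of 1.99 (1.61 to 2.48) and the 7 minus clusters 5.25 (3.62 to 7.81). Scaled to the totals of each strand, these ratios were 2.18 and 5.02.

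The strands of the chromosome 7 locus met at a gap of 3172 bases. At its edges were the minus cluster chr7:80959389-80959474 with 19 IP reads and 0 IgG reads and the plus cluster chr7:80962647-80962801 with 44 against 19 reads, a ratio of 2.27 (1.30 to 4.12). The minus cluster chr7:80956752-80956901 had 46 against 12 reads, a ratio of 3.76 (1.96 to 7.79). A 137-base plus cluster at 80969405 to 80969541, with 11 IP reads and 0 IgG reads, was among the 10 longest clusters and had the lowest IP count that could be listed. The minus strand had 137 islands in 36.9 kb, and 7 of them (5.11%) were listed, the lowest share of the 13 strands.

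All 11 clusters on chromosome 9 (chr9:67562959-67598538) had an IgG count of 0. The 7 minus clusters had 13 to 26 IP reads and the 4 plus clusters 11 to 14. The locus had 162 IP reads in all, at least 4.81-fold more than 3 IgG reads per cluster. An interval of 3.29 to 7.22 around that value treats the put-in reads as counted, although no IgG read was listed. The gap of 4449 bases was flanked by the minus cluster chr9:67577290-67577343, which had the 26 reads, and the plus cluster chr9:67581793-67581834 with 12. The longest cluster, minus at 67573130 to 67573302, had 17. The minus strand was the densest of the 13.

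The loci on chromosomes 6 and 18 had wider gaps between the strands. On chromosome 6 (chr6:127738908-127762425) 2 minus clusters, the larger of them at 127738908 to 127739021 with 21 IP reads and 4 IgG reads, stood 11.1 kb from 4 plus clusters with 11 to 13 IP reads and IgG counts of 0. The clusters at the gap, minus at 127739554 to 127739629 and plus at 127750737 to 127750799, had 12 and 11 IP reads and IgG counts of 0. The plus cluster with the most reads, 13, was at 127762342 to 127762425. The plus strand had 46 islands in 11.7 kb.

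On chromosome 18 (chr18:67212224-67233850) 7 minus clusters with 189 IP reads lay to the left of a single 31-base plus cluster at 67233820 to 67233850 with 13 IP reads and 0 IgG reads. The gap was 9991 bases, and its left edge was the minus cluster at 67223720 to 67223828 with 27 and 6 reads. The longest cluster of all 109, minus at 67216887 to 67217164, had 56 IP reads and 23 IgG reads, a ratio of 2.39 (1.44 to 4.06). The minus cluster at 67219349 to 67219550 had 28 against 6 reads, a ratio of 4.57 (1.86 to 13.5). Only 5 plus islands were numbered in the 38.1 kb to the next listed plus cluster, so the plus side of this locus rests on that single cluster. That next cluster, at 67271920 to 67271945, had 74547 IP reads and 30687 IgG reads.

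**Figure D4:**
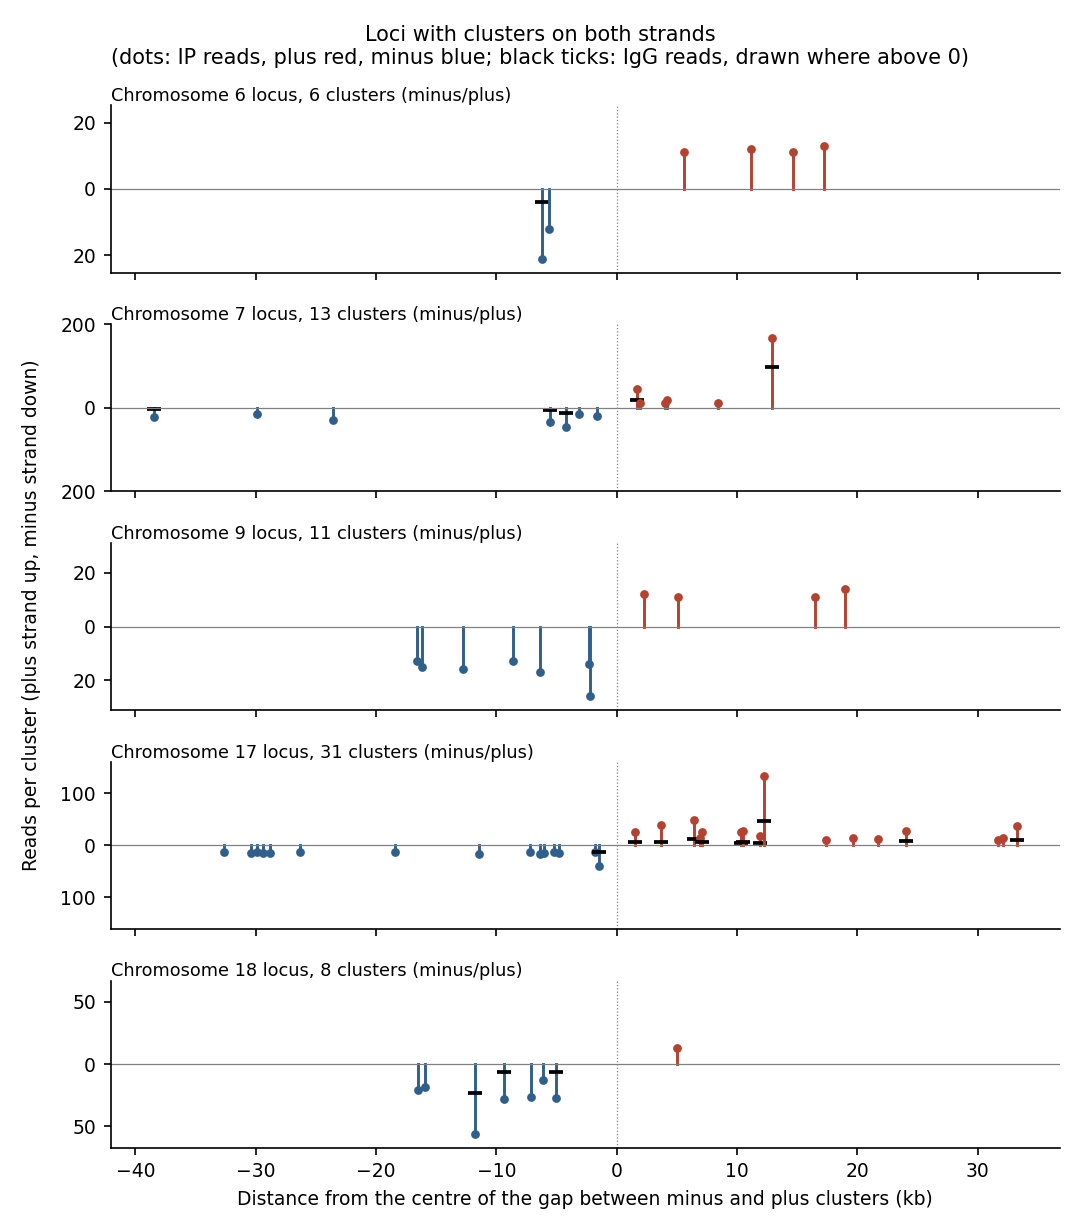
Reads of each cluster in the 5 loci with both strands against the distance from the centre of the gap between the strands (kb), plus strand upward in red, minus strand downward in blue, IgG reads as black ticks where above 0; each locus has its own read scale. Minus clusters lie to the left and plus clusters to the right of the gap in every locus, and the gaps run from 2.87 kb on chromosome 17 to 11.1 kb on chromosome 6.

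The share of reads on each strand was not a stable feature of these 5 loci. Plus clusters held 53.3% of their IP reads (exact interval 50.8 to 55.8%) and 76.1% of their IgG reads (70.9 to 80.7%). Without the chromosome 17 locus the plus share of the IP reads was 41.7%, and counted by cluster it was 44.9%. Over the whole libraries 31.1% of IP and 34.04% of IgG reads were on the plus strand. The IgG share was led by the plus clusters with 98 and 47 IgG reads on chromosomes 7 and 17.

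Among the loci with clusters on 1 strand, chromosome 2 (chr2:92383056-92434686) had 11 plus clusters with 11 to 29 IP reads. The cluster with the most reads in both libraries, at 92394922 to 92394961, had 29 IP reads and 7 IgG reads, and 4 of the 11 stood at the lowest listable count. On chromosome 4 (chr4:93957499-93994906) the 11 minus clusters had 13 to 36 IP reads, and none stood at the lowest listable count. Its 26-base cluster at 93983857 to 93983882 had 36 against 5 reads, a ratio of 7.06 (2.76 to 23.03). The cluster with the most IgG reads, at 93984929 to 93985008, had 33 and 9 reads.

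Chromosome 10 (chr10:75302096-75322798) had 7 plus clusters, led by the one at its upstream end, 75302096 to 75302175, with 24 IP reads and 4 IgG reads. The cluster at 75313094 to 75313182 had 23 and 6. On chromosome 14 (chr14:45393751-45407726) the 6 minus clusters were led by a 44-base cluster at the downstream end, 45393751 to 45393794, with 56 against 14 reads and a ratio of 3.92 (2.15 to 7.62). This cluster held 38.4% of the IP reads of its locus. The highest ratio among the 35 clusters with IgG reads was also there, 7.35 (2.59 to 28.7) at 45399901 to 45399981, from 30 and 4 reads. Chromosome 15 (chr15:74472359-74488523) had 5 plus clusters. Of these, 4 with 11 to 18 IP reads and IgG counts of 0 lay between 74472359 and 74474812, and the fifth, at 74488496 to 74488523, had 25 IP reads and 6 IgG reads.

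**Figure D5:**
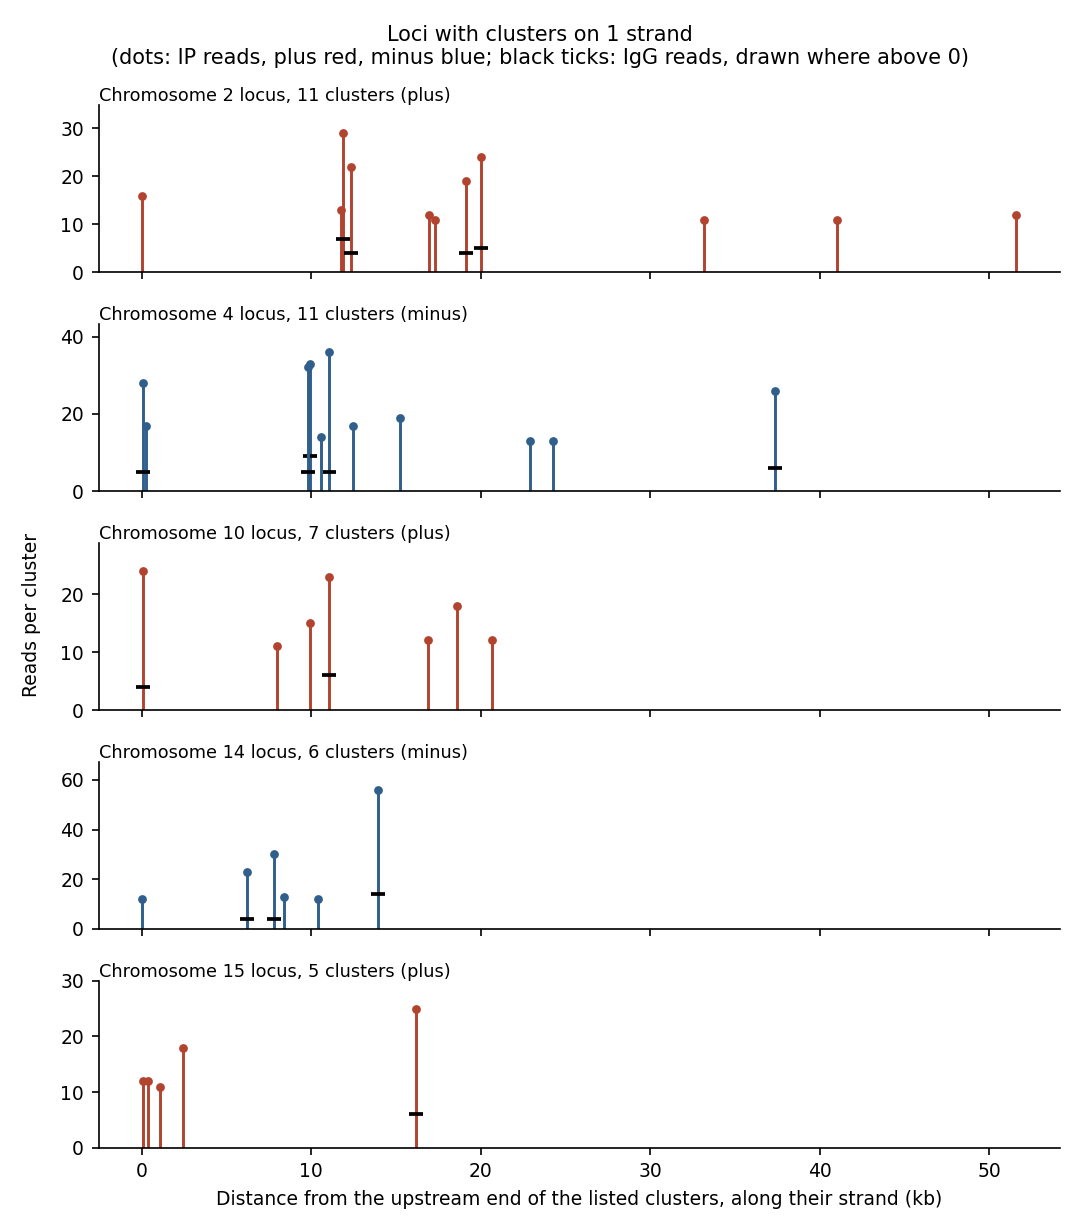
Reads of each cluster in the 5 loci with clusters on 1 strand against the distance from the upstream end of the listed clusters along their strand (kb), plus strand red, minus strand blue, IgG reads as black ticks where above 0; each locus has its own read scale. The most read cluster of the chromosome 14 locus, with 56 IP reads, lies at its downstream end, and that of chromosome 10, with 24, at its upstream end.

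The ratios of the loci could not be put in order. With zeros set to 3 they ran from 2.67 on chromosome 7 to 5.06 (3.70 to 7.05) on chromosome 4. The intervals of these 2 loci did not overlap, but without the cluster with the most IP reads in each locus the values were 4.18 (3.18 to 5.56) and 4.83 (3.47 to 6.87). Without those clusters all 10 ratios lay between 3.85 (chromosome 6) and 5.30 (chromosome 18), with intervals that overlapped. This range is partly set by the listing. With 3 in place of 0, a cluster at the lowest listable count has 3.59 on the plus strand and 3.92 on the minus strand. On chromosomes 6, 9 and 15 no IgG read was left, so their ratios rest on the put-in reads alone.

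The borders of the loci stood clear of other listed clusters. Each locus begins and ends at a listed cluster and was picked for clusters lying close together, so wider gaps outside describe that choice. The widest gap between neighbouring listed clusters inside a locus was 17956 bases, on chromosome 7. Outside, the nearest listed cluster was 38.1 kb away on chromosome 18 and 51.7 kb away on chromosome 17, where a plus cluster at 27377036 to 27377053 had 34 IP reads and 10 IgG reads, and the farthest of the 20 neighbours was 2042 kb from the locus on chromosome 6. Of these 20 neighbours, 1 was longer than 26 bases, a 54-base plus cluster on chromosome 7 at 80287658 to 80287711 with 12 IP reads and 0 IgG reads.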

How the data were processed

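Reads were aligned to NCBIM37 with BWA 0.5.8, per the submitters' processing notes, which give no roles. The sources used here do not give the calling of islands, the handling of reads that match several places or any filters. Per the file headers, the authors' table holds unscaled read counts of both libraries for each cluster. It also holds the authors' log2 fold change (0.5 in place of 0), p-value and q-value, and the file header names a p threshold of 0.001. The z-score is a score that the authors made from both counts before deposit. The total of each library was solved from those scores, which it gave back within 4.08e-08. Counts were scaled to the totals of both strands. Ratios carry exact binomial (Clopper-Pearson) 95% intervals. Where zeros were set to 3, these were computed as if the put-in reads had been counted. No p-value was computed, since each group has 1 library. The recovery and the intervals were tested on simulated data. Versions were SciPy 1.17.1, NumPy 2.4.6, Matplotlib 3.10.9, pandas 2.3.3 and Python 3.11.15.

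The loci were chosen with earlier results of these data known. Named clusters are, in each locus, those with the most IP or IgG reads and those at the gap between strands; over all loci, the 10 with the most IP reads, the 10 longest and the 5 lowest ratios; and the nearest listed clusters outside, given mostly as ranges. Counts from island numbers, the lowest listable counts and the comparison under 30 IP reads were added after the data were seen. Alternatives for scaling, zeros, pseudocount, minimum reads, length and loci are given in the closing section. Genes and sequences of the loci were not used here.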

Additional observations from a re-analysis of the deposited data

How the results depend on the processing

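No paired analysis was possible because there is 1 library per group, which also means that no replicate can be dropped. The summed ratio of 5.92 moved to 3.31 with the median scaling, which divides every ratio by 1.79, to 3.78 with IgG counts of 0 set to 3, to 3.30 over clusters with IgG reads, to 9.53 without the cluster with the most IP reads of each locus and to 8.46 as the median of the locus ratios; leaving out 1 locus gave 5.51 to 7.44, the highest without chromosome 7. All 61 alternatives of the 9 finite locus ratios lay above 1. The listing left little room for another outcome, since every cluster of the loci had passed the p threshold with more IP than IgG reads. Of the 108 clusters at a ratio of at least 2, 36 had at least 20 IP reads, as had 4 of the 74 at IgG 0. The median length was 89 bases among clusters with at least 20 IP reads, against 76. The plus strand share of 53.3% turned to 44.9% by clusters, 46.2% without the largest clusters and 41.7% without chromosome 17; it was 71.7% with strand totals and 76.1% for IgG reads. Leaving out 1 locus gave 41.7 to 60.04%. Islands per kb, 4.10, were 3.64 to 4.35 when 1 locus was left out, and the listed share of islands 8.37 to 8.97%.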

Other observations

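With skipped numbers again taken to be islands, several other stretches had numbered islands at a density like that of the candidate loci. Outside the 10 loci, 18 of 2606 stretches of at least 5 kb between neighbouring listed clusters of 1 strand had 1 or more islands per kb. The densest lay on the minus strand of chromosome 5 from 115292265 to 115298832, with 5.48 islands per kb. Its end clusters had 12 and 39 IP reads and 0 and 9 IgG reads. It is part of a dense strand reaching to 115302164, whose 7 listed clusters held 74785 IP reads and 54962 IgG reads, unlike the few reads of the candidate loci. On the plus strand of chromosome 14, from 24903335 to 24913763, there were 4.70 per kb, with end clusters of 17 and 32 IP reads. The minus strand of chromosome 15 from 59098108 to 59104868 had 4.29 per kb, with 12 IP reads and an IgG count of 0 at both ends. On chromosome 12, 3.98 per kb on the minus strand from 99638581 to 99646617 stood to the left of 2.48 per kb on the plus strand from 99658428 to 99664070, although another listed plus cluster, at 99632684, lay left of all minus clusters there. The longest of the dense stretches with over 2 islands per kb was on the plus strand of chromosome 7 from 80252915 to 80287658, with 82 island numbers passed in 34.7 kb, 635 kb to the left of the chromosome 7 locus. All of these were picked after their values were seen, and what they hold was not analysed here.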
